A study of Mus musculus with 6 samples.

Results

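The ADAM genes encode membrane-anchored proteins with a metalloprotease-like domain and a disintegrin domain. They were taken from the deposited table as every gene whose name begins with Adam followed by a digit, which leaves out the secreted Adamts relatives, and 32 of the 26743 genes in the table met this rule. Total RNA was measured in whole testis of 3 WT and 3 Trf2-/- mice, all at postnatal day 21, and no further allele or treatment is named for either genotype. Trf2, listed as Tbpl1, encodes a relative of the TATA-binding protein that male mice need to complete spermatogenesis. The comparison asked how its loss changes gene expression when round spermatids first appear in the juvenile testis. The methods give a 129/SvPas background in their account of the tagged Trf2 line and do not say whether it also holds for these mice, and the construction of the Trf2-/- allele is not given in the sources used here. RNA came from whole testis, so fewer cells of a type and less RNA per cell cannot be told apart in any result.

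An ADAM that acts as a protease holds a zinc ion in its active site with 3 histidines and cuts other membrane proteins near the cell surface. ADAM10 and ADAM17 release growth factors, cytokines and the Notch receptors in this way in many tissues. Many other ADAMs are made almost only by male germ cells, and several of these have lost the zinc-binding residues. On sperm, ADAM2 pairs with ADAM1 proteins to form fertilin, and ADAM3, formerly called cyritestin, is required for sperm to enter the oviduct and bind the egg coat. The testases are a further group of germ cell ADAMs, most of which keep the active site. ADAM11, ADAM22 and ADAM23 lack a working protease site and are best known from nerve cells, where they act as adhesion proteins and receptors.

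The stretch of coding DNA that matches the zinc site shows how these groups differ. Each line below gives the 33 bases for 11 residues, read in the direction of the gene from the Gencode vM1 transcripts on NCBIM37 (mm9), and capitals mark the codons of the 3 zinc-binding histidines and of the catalytic glutamate. The first pair are abundant germ cell ADAMs, the next 5 are germ cell ADAMs that keep the site, and the last 3 are widely expressed proteases and a neural type gene.
Adam2: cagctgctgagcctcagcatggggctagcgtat
Adam3: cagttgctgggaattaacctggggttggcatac
Adam1b: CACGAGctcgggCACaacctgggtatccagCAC
Adam1a: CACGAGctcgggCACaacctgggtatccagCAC
Adam30: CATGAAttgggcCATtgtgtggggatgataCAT
Adam24: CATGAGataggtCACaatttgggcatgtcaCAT
Adam26a: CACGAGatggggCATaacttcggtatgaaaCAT
Adam17: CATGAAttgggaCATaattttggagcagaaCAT
Adam9: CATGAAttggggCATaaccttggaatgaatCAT
Adam11: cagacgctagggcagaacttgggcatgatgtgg

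These stretches lie on the minus strand at chr14:66672678-66672710 in Adam2, chr8:25817890-25817922 in Adam3, chr5:121951946-121951978 in Adam1b and chr5:121970098-121970130 in Adam1a. They lie on the plus strand at chr3:97965784-97965816 in Adam30, chr8:41765872-41765904 in Adam24 and chr11:102634927-102634959 in Adam11. Those of Adam26a at chr8:44654789-44654821, Adam17 at chr12:21342593-21342625 and Adam9 at chr8:26100798-26100830 are on the minus strand. Each of these 10 stretches lies within 1 coding exon. The full motif was encoded in 19 of the 32 ADAM genes. These were all 8 widely expressed ADAMs, all 8 testase type genes, Adam1a, Adam1b and Adam28. None of the 3 histidines stood at the aligned positions in Adam2, Adam3, Adam5, Adam18 or Adam32. Adam1a and Adam1b are identical over the stretch shown.

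The libraries held between 15187062 and 29859347 reads counted on genes, and the range of the WT mice overlapped that of the Trf2-/- mice. Tbpl1 itself had 308, 283 and 294 CPM (read counts scaled to a common library size with TMM factors) in the WT mice against 62.9, 64.3 and 55.8 CPM in the Trf2-/- mice. A difference was said to pass the test at an adjusted p under 0.05 from edgeR's quasi-likelihood test, fitted and adjusted over the 16924 genes with enough reads. Of these genes, 20.2% were lower and 11.2% higher in Trf2-/- testis, that is 3423 and 1889 genes. With scaling by library size alone the split was 2691 lower and 4267 higher, and the median log2 fold change of these genes moved from 0.04 to 0.13. Trf2-/- mouse 3 had the fewest reads and stood apart, with a chi-square per degree of freedom of 11.1 and 10.8 against the other Trf2-/- mice, which differed from each other by 6.69. SE stands for standard error on the log2 scale.

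Most germ cell ADAM genes were lower in Trf2-/- testis and most widely expressed ones were slightly higher. Among the 24 ADAM genes with enough reads to test, 11 were lower and 6 were higher, and 7 did not pass. Of the genes that passed, 8 were at least 2-fold lower (4.3% of all genes tested passed in this way), and 0 were at least 2-fold higher. Every Trf2-/- mouse lay below every WT mouse in 11 of the 24 (26.8% of all genes tested) and above in 6 (22.3%). Both counts of 11 and the count of 8 include Adam26a and Adam24, which passed the filter on low counts only through their WT counts. With at least 10 counts required in every mouse, 9 of 20 ADAM genes tested were lower (20.5% of all genes tested in that setting). In that setting 6 were at least 2-fold lower, and this share over all genes is not given here. All germ cell ADAMs together took between 87.8% and 88.7% of the CPM of the family in WT mice. In Trf2-/- mice this share was 76.0%, 79.0% and 70.9%, with the lowest value in mouse 3. The summed level of the whole family was between 2640 and 2790 CPM in WT and between 1210 and 1650 CPM in Trf2-/- testis.

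**Figure D1:**
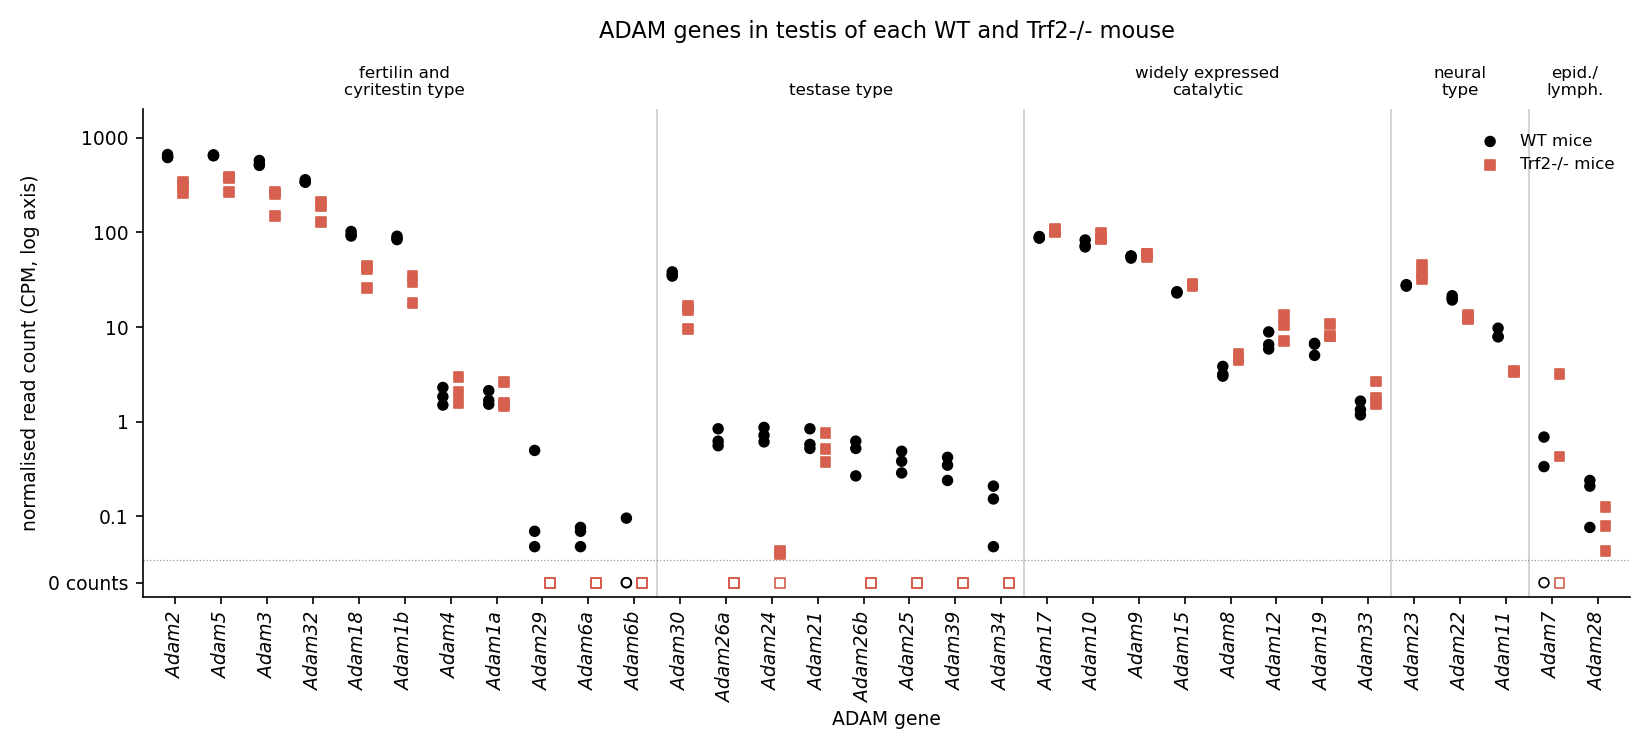
Normalised read count (CPM, log axis) of the 32 ADAM genes, with 1 point for each of 3 WT mice (black circles) and 3 Trf2-/- mice (red squares), and open symbols on the bottom line for a count of 0. Abundant germ cell genes on the left are lower in all Trf2-/- mice, several testase type genes fall to 0 counts, and the widely expressed genes differ little between genotypes.

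Adam2, the fertilin beta gene on chromosome 14 from 66646166 to 66696570, was the most abundant ADAM gene of WT testis per length, at 248 CPM per kb. It had 662, 622 and 616 CPM in WT mice and 311, 340 and 257 CPM in Trf2-/- mice. The genotypes did not overlap. Its mean was 633 ± 25.2 CPM (SD, n = 3) in WT and 303 ± 42.1 CPM (SD, n = 3) in Trf2-/- testis, a log2 fold change of -1.06 (SE 0.09, adjusted p = 0.000282).

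Adam18, Adam3, Adam5 and Adam32 lie in a run on chromosome 8 between 25712718 and 26059276, all on the minus strand, and each fell. Adam3 had 573, 509 and 523 CPM in WT and 251, 270 and 148 CPM in Trf2-/- mice, a log2 fold change of -1.26 (SE 0.18, adjusted p = 0.00142). Trf2-/- mouse 3 was the lowest, far below the other two. Adam5 had 643, 647 and 658 CPM in WT and 372, 387 and 268 CPM in Trf2-/- mice (log2 fold change -0.92, SE 0.12, adjusted p = 0.000842). Adam32 had 359, 339 and 339 CPM in WT and 187, 208 and 129 CPM in Trf2-/- mice (log2 fold change -0.98, SE 0.14, adjusted p = 0.00136). For both, no Trf2-/- mouse reached the WT range. Adam18 was less abundant, with 102, 91.3 and 94.2 CPM in WT and 41.0, 44.2 and 26.0 CPM in Trf2-/- mice, and its log2 fold change was -1.36 (SE 0.16, adjusted p = 0.000621). Adam18, Adam3, Adam5 and Adam32 encode proteins of the sperm surface, and with Adam2 they made up between 82.9% and 83.9% of the family's CPM in WT and between 68.3% and 75.6% in Trf2-/- testis. In WT testis the order per length was Adam2, Adam5, Adam3, Adam32, Adam18 and Adam1b, at 248, 208, 182, 137, 40.7 and 30.1 CPM per kb.

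The next gene along this stretch, Adam9, is also on the minus strand and encodes a widely expressed protease. In the direction of transcription, 806 bases separate the end of Adam9 from the start of Adam32. Adam9 had 56.3, 53.4 and 55.9 CPM in WT and 59.1, 55.1 and 59.6 CPM in Trf2-/- mice. The genotypes overlapped, and its log2 fold change was 0.07 with a 95% interval from -0.06 to 0.19 (adjusted p = 0.370). The log2 ratio of Adam32 to Adam9 counts was 2.67, 2.67 and 2.60 in WT mice and 1.66, 1.92 and 1.11 in Trf2-/- mice. This ratio within each library was lower in every Trf2-/- mouse, by 1.08 on average, and a two-sided exact permutation test gave p = 0.1, the smallest it allows with 3 against 3.

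**Figure D2:**
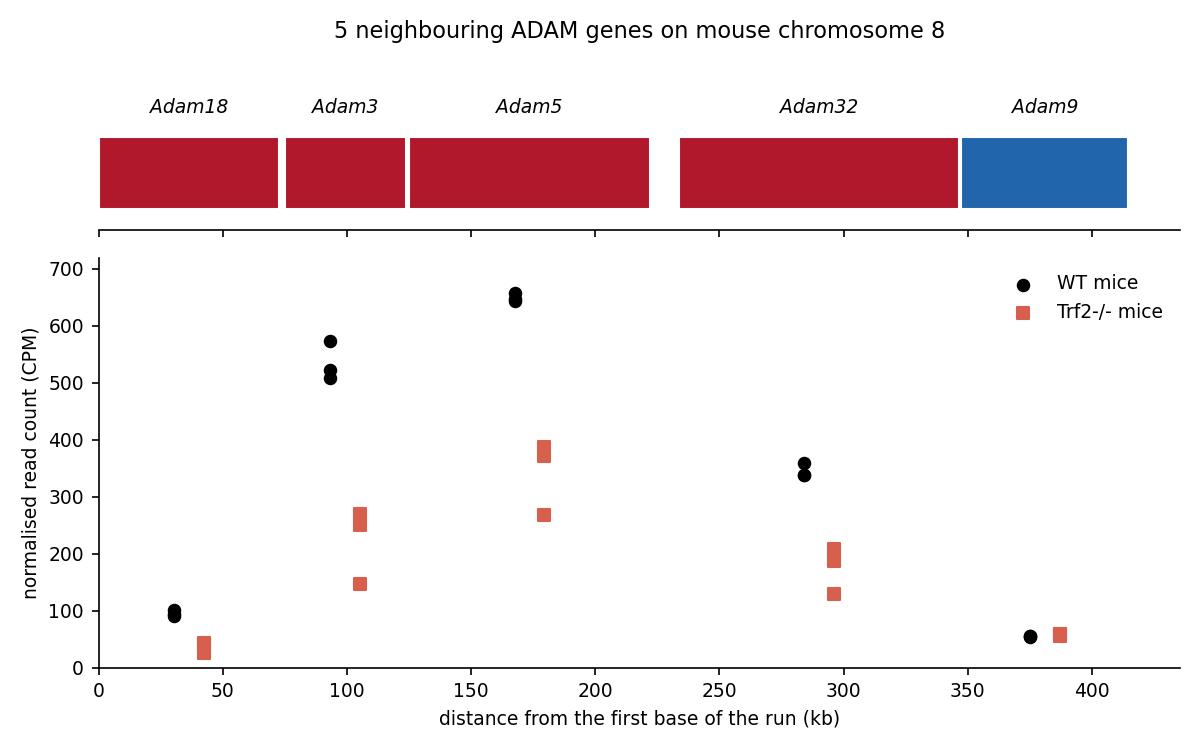
The upper strip shows 5 neighbouring ADAM genes on mouse chromosome 8 by distance from the first base of the run (kb), and the lower panel gives each gene's normalised read count (CPM) in 3 WT mice (black circles) and 3 Trf2-/- mice (red squares). The 4 germ cell genes are lower in all Trf2-/- mice, while the points of Adam9 overlap.

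Adam1b and Adam1a both encode partners of ADAM2 in fertilin, but Adam1b was far more abundant, and Adam1b passed the test where Adam1a did not. Adam1b had 90.9, 83.7 and 86.1 CPM in WT and 29.5, 34.7 and 17.9 CPM in Trf2-/- mice. It was lower in all 3, with a log2 fold change of -1.65 (SE 0.18, adjusted p = 0.000530). Adam1a, which lies 15623 bases from Adam1b on chromosome 5, had 61, 40 and 35 counts in WT and 37, 37 and 42 counts in Trf2-/- mice. The genotypes overlapped, and its log2 fold change was 0.05 with a 95% interval from -0.55 to 0.65 (adjusted p = 0.90). The log2 ratio of Adam1b to Adam1a counts was 5.62 ± 0.18 (SD, n = 3) in WT and 3.84 ± 0.95 (SD, n = 3) in Trf2-/- mice, with no overlap (two-sided exact permutation test, p = 0.1, again the smallest possible). Their proteins are identical at 72.6% of 752 aligned residues. Of the 50-base windows of the Adam1b transcript 37.6% also occur in Adam1a, and of those of Adam1a 35.0% occur in Adam1b. The handling of reads that match both genes is not given in the sources used here, so the count of Adam1a, the rarer of the pair, is uncertain. Adam1a also overlaps Mapkapk5 on the same strand, whose log2 fold change was 0.03 (95% interval -0.11 to 0.17).

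Adam4, another single-exon germ cell gene, had 43, 48 and 48 counts in WT and 75, 48 and 25 counts in Trf2-/- mice. Its log2 fold change of 0.27 did not pass the test (95% interval -0.33 to 0.87, adjusted p = 0.457), and the genotypes overlapped. It overlaps Synj2bp and Cox16 on the same strand, which had log2 fold changes of -0.10 and -0.34, and 13.2% of its 50-base windows occur in a further gene, so its count is uncertain too. Leaving out Trf2-/- mouse 1 gave -0.02 for Adam4. Adam29 had 2, 13 and 1 counts in WT mice, and Adam6a had 2, 2 and 1. Adam6b had 2 counts in WT mouse 3 alone. All 3 genes had 0 counts in every Trf2-/- mouse, which allows up to 3 counts per library, and none had enough reads to test. For Adam29, 13 of the 16 WT counts came from WT mouse 2, so no bound is given.

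Of the 8 testase type genes in the table, 3 of the 4 that could be tested fell, and the 4 untested ones had 0 counts in all Trf2-/- mice. The filter on low counts kept Adam26a and Adam24 only through their WT counts, so a gene with such counts had to differ to be tested. With at least 10 counts required in every mouse, 9 of 20 ADAM genes tested were lower, against 20.5% of the 15525 genes tested in that setting. Adam30, on chromosome 3 from 97964735 to 97967096, was the abundant testase, with 35.6, 34.5 and 38.2 CPM in WT and 15.2, 16.6 and 9.61 CPM in Trf2-/- mice. Its log2 fold change was -1.37 (SE 0.16, adjusted p = 0.000613), and the genotypes were apart. Unlike Adam2 or Adam3 it encodes the full zinc site shown above. Adam26a had 16, 22 and 13 counts in WT mice and 0 in each Trf2-/- mouse, which puts it at least 3.56-fold lower (adjusted p = 0.00136). Adam24 had 25, 16 and 15 counts against 1, 1 and 0, a ratio of 23.8 with a 95% exact interval for counting error from 6.29 to 201 (adjusted p = 0.000760).

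Adam26b, Adam25 and Adam39 showed the same kind of counts at a lower level and were not tested. Adam26b had 15, 7 and 13 counts in WT mice, Adam25 had 14, 10 and 6, and Adam39 had 10, 11 and 5, and all were at 0 in Trf2-/- mice. They were at least 2.49-, 2.04- and 1.77-fold lower against the limit of 3 counts per library. Adam34 had 6, 4 and 1 counts against 0 in every Trf2-/- mouse, too few for a bound. All of Adam24, Adam25, Adam39, Adam26b, Adam26a and Adam34 lie on chromosome 8 between 41760448 and 44784841, and each has a single coding exon. The proteins of Adam25 and Adam39 are identical at 91.4% of aligned residues, those of Adam26a and Adam26b at 88.4%. Between 19.0% and 37.1% of the 50-base windows of Adam25, Adam39, Adam26a, Adam26b and Adam34 occur in another gene, so how reads were divided among these copies is uncertain, and Adam24 shares none. With no filter beyond 1 count, all 32 ADAM genes entered the test, and 16 were lower and 13 at least 2-fold lower. Over all genes, 3472 of 26743 were lower in that setting, and the share at least 2-fold lower is not given here. Adam29, Adam26b, Adam25, Adam39 and Adam34 passed there with 0 counts in every Trf2-/- mouse.

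Adam21, the testase type gene on chromosome 12 from 82659571 to 82669461, did not pass the test. It had 15, 22 and 12 counts in WT and 19, 12 and 6 counts in Trf2-/- mice. The genotypes overlapped, and its log2 fold change of -0.19 had a 95% interval from -0.96 to 0.59 (adjusted p = 0.704). Its few counts leave room for a change of the size seen in Adam5.

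**Figure D3:**
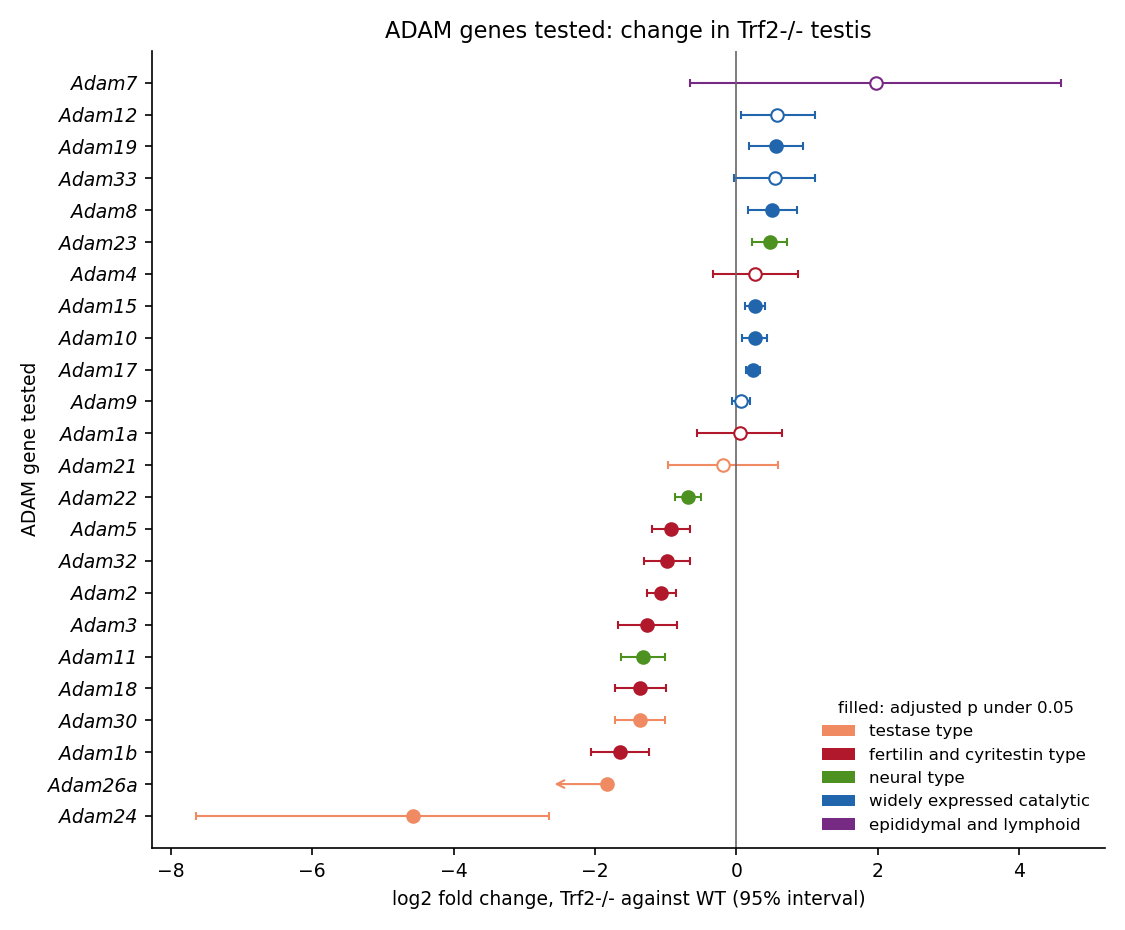
Log2 fold change in Trf2-/- against WT testis of the 24 ADAM genes tested, with 95% intervals, coloured by group, filled where the adjusted p was under 0.05. Adam26a is drawn at its bound of 3.56-fold lower with an arrow and Adam24 at its count ratio of 23.8 with its counting interval. The 9 germ cell genes that passed lie left of 0 and the 5 widely expressed ones that passed lie right of it.

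Over the 12 germ cell ADAMs tested, 9 were lower and 0 higher, against 20.2% and 11.2% of all genes, with a median log2 fold change of -1.16, against 0.04 for all genes tested. These 9 include Adam26a and Adam24, which entered the test through their WT counts. Of the 10 others, 7 were lower, and their median was -1.02. Of the 12 germ cell ADAMs tested, the same 9 had every Trf2-/- mouse below every WT mouse (26.8% of all genes tested). So did 6 untested germ cell ADAMs at 0 counts in Trf2-/- mice, where a WT count of 1 in each mouse is enough. The size of the fall differed between mice. Across Adam2, Adam3, Adam5, Adam18, Adam32, Adam1b and Adam30, the log2 ratio to the WT mean ran from -1.56 to -0.80 in Trf2-/- mouse 1 and from -1.32 to -0.73 in mouse 2. In mouse 3 it ran from -2.28 to -1.28, and mouse 3 was the lowest for all 7 genes. Without mouse 3 each of the 7 still passed the test in the lower direction, with log2 fold changes between -1.43 (Adam1b) and -0.77 (Adam5), and Adam2 at -0.95 was then under the 2-fold limit. The median over the germ cell ADAMs tested was -1.03 without it.

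**Figure D4:**
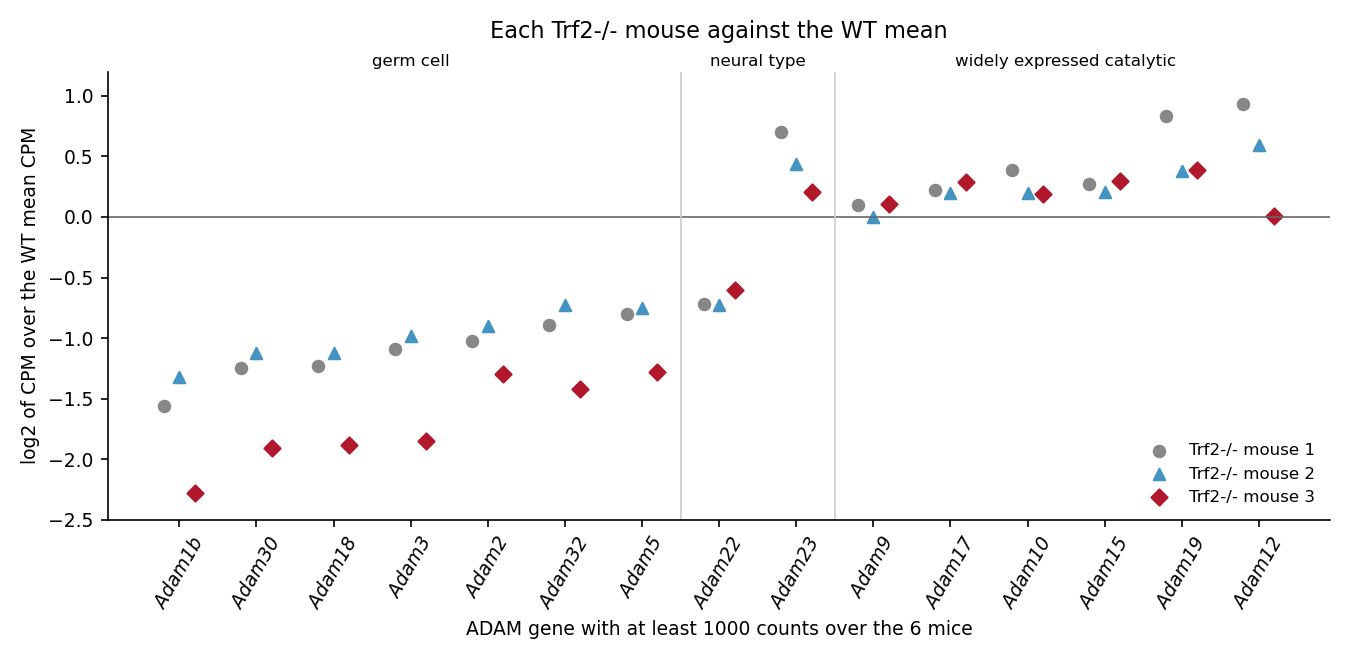
Log2 ratio of each Trf2-/- mouse's CPM to the WT mean for 15 ADAM genes with at least 1000 counts over the 6 mice, with mouse 1 as grey circles, mouse 2 as blue triangles and mouse 3 as red diamonds. Mouse 3 is lowest for the 7 germ cell genes at -2.28 to -1.28, but not for Adam22 or most widely expressed genes.

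Most of the round and elongating spermatid markers that were tested were lower in Trf2-/- testis. The summed level of 7 round spermatid markers was between 12.1 and 13.4 CPM in WT mice and 7.18, 7.93 and 5.50 CPM in Trf2-/- mice 1 to 3. Spaca1, an acrosomal membrane protein gene and the most abundant of the 7, had 7.13 ± 0.433 CPM in WT and 6.09 ± 0.733 CPM in Trf2-/- mice (SD, n = 3 each; log2 fold change -0.22, adjusted p = 0.217). The other 6, Acrv1, Spaca7, Tssk2, Catsper1, Catsper3 and Izumo1, were lower (20.2% of all genes tested were), but they had at most 15 counts in any Trf2-/- mouse and at most 41 in any WT mouse. All 6 passed the filter on low counts only through their WT counts. Genes with such counts had to differ to be tested, so the share over all genes is not a like measure for them. Acrv1, an acrosomal protein gene, had 33, 41 and 24 counts in WT and 1, 3 and 0 in Trf2-/- mice, and Spaca7, Catsper1 and Catsper3 were also at 0 in mouse 3. Of 7 pachytene spermatocyte markers 6 were lower and Sycp3, a synaptonemal complex gene, was higher (20.2% and 11.2% of all genes tested). Ccna1, a meiotic cyclin gene, had the largest change at -1.63 on the log2 scale, and the rest of the lower ones ran from -0.70 (Ldhc) to -0.17 (Hspa2). Their sum was between 5200 and 5640 CPM in WT and 4300, 4490 and 3780 CPM in Trf2-/- mice, again lowest in mouse 3. The 5 elongating spermatid markers summed to at most 6.93 CPM in WT and 1.54 CPM in Trf2-/- mice, with Prm2 and Tnp1 at 4 counts or fewer in every mouse and Akap4, Odf1 and Oaz3 lower. Akap4 and Odf1 also passed the filter only through their WT counts. How far these cell types account for the ADAM values was not tested.

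The 8 widely expressed catalytic ADAMs, all tested, gave 5 that were higher (11.2% of all genes tested), 0 that were lower and 3 that did not pass, with log2 fold changes between 0.07 and 0.58 and a median of 0.39. Adam17, which encodes the TNF-alpha converting enzyme, had 90.2, 86.9 and 87.3 CPM in WT and 103, 101 and 108 CPM in Trf2-/- mice. The genotypes did not overlap, and its log2 fold change was 0.24 (SE 0.05, adjusted p = 0.00610). Adam10, the Notch receptor protease, had 72.2, 70.1 and 83 CPM in WT and 98.2, 86.0 and 85.6 CPM in Trf2-/- mice (log2 fold change 0.26, SE 0.08, adjusted p = 0.0353). Its highest WT mouse came close to the lowest Trf2-/- mice. Adam15, encoding a protease of adhesion sites, had 23.2, 22.9 and 23.6 CPM in WT and 28.1, 26.8 and 28.6 CPM in Trf2-/- mice, a narrow and separate pair of ranges (log2 fold change 0.26, SE 0.06, adjusted p = 0.0127).

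The other four were rarer. Adam8, a gene of leukocytes, had 3.03, 3.18 and 3.84 CPM in WT and 4.64, 4.46 and 5.25 CPM in Trf2-/- mice (log2 fold change 0.51, SE 0.15, adjusted p = 0.0315). Adam19, encoding the protease also called meltrin beta, had 6.59, 5.02 and 6.72 CPM against 10.8, 7.93 and 8.03 CPM (log2 fold change 0.56, SE 0.17, adjusted p = 0.0341). Both were higher in every Trf2-/- mouse. Adam12, the meltrin alpha gene, had 6.52, 5.86 and 8.88 CPM against 13.5, 10.6 and 7.14 CPM, with Trf2-/- mouse 3 inside the WT range (log2 fold change 0.58, 95% interval 0.06 to 1.11, adjusted p = 0.0854). Without mouse 3 it passed at 0.79 (adjusted p = 0.00996). Adam33 had 34, 43 and 28 counts in WT and 67, 42 and 24 in Trf2-/- mice (log2 fold change 0.54, 95% interval -0.04 to 1.12, adjusted p = 0.136).

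Among these 8, Adam17 alone passed under each of the 13 alternative settings. The number of ADAM genes that were higher, 6 with Adam23 included, was 2 without WT mouse 1 or without WT mouse 2 and 3 without Trf2-/- mouse 1, while the number that were lower stayed at 11 or 12 when any mouse was left out. Over all genes, the number higher went from 1889 to 787, 780 and 1174 in these settings. The number lower over all genes went from 3423 to between 2626 and 3332 when 1 mouse was left out. The median over the widely expressed ADAMs was 0.25 without Trf2-/- mouse 1. The call of Adam10 was lost without WT mouse 1, WT mouse 2, Trf2-/- mouse 1 or Trf2-/- mouse 2 (adjusted p between 0.0618 and 0.141 in these). That of Adam19 was lost without any 1 of the WT mice or Trf2-/- mouse 1 (0.0553 to 0.123), that of Adam8 without any mouse but WT mouse 3 (0.0504 to 0.113), that of Adam15 without WT mouse 2 (0.0590), and that of Adam23 without WT mouse 1 (0.0519). Their log2 fold changes remained positive in each case. Macrophage markers also moved: Lyz2, Emr1 and Csf1r were higher in Trf2-/- testis, beside 11.2% of all genes tested. The sum of 5 such markers was between 142 and 165 CPM in WT and 319, 192 and 160 CPM in Trf2-/- mice. Among the Trf2-/- mice, Adam10, Adam12, Adam19, Adam33 and Adam23 were highest in mouse 1, where this sum was highest. Adam8, Adam9, Adam15 and Adam17 were highest in mouse 3, where the sum was within the WT range. Mrc1, the most abundant of these markers, had 71.8 CPM in mouse 3, below its WT range of 80.1 to 92.5 CPM. The others, Lyz2, Emr1, Csf1r and Cd68, were above every WT mouse in mouse 3, Lyz2 at 37.9 CPM against at most 25.3 CPM. Of 5 Sertoli cell markers 2 were higher (11.2% of all genes tested), and the sum of the 5 was 179 to 192 CPM in WT and 213 to 241 CPM in Trf2-/- mice. In all 5 every Trf2-/- mouse lay above every WT mouse (22.3% of all genes tested). The part of either in the ADAM values was not tested.

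The 3 neural type ADAMs split. Adam11 had 9.72, 7.89 and 7.92 CPM in WT and 3.37, 3.39 and 3.48 CPM in Trf2-/- mice, a log2 fold change of -1.32 (SE 0.14, adjusted p = 0.000449). Adam22, whose protein is a receptor for LGI1 in the brain, had 575, 505 and 447 counts in WT and 311, 285 and 211 counts in Trf2-/- mice, or 20.3 ± 1.07 against 12.6 ± 0.613 CPM (SD, n = 3 each), a log2 fold change of -0.68 (SE 0.08, adjusted p = 0.000712). In both genes the genotypes were well apart, the Trf2-/- mice were close to each other and mouse 3 had the highest CPM among them. Adam23 had 27.0, 27.6 and 28.0 CPM in WT and 44.8, 37.3 and 31.7 CPM in Trf2-/- mice, higher in all 3 but spread out, with a log2 fold change of 0.47 (SE 0.11, adjusted p = 0.0121). As in Adam2 and Adam3, the full zinc motif is not encoded in these 3 genes.

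Adam7, a gene known from the epididymis, had 0, 18 and 7 counts in WT and 81, 10 and 0 counts in Trf2-/- mice. Its log2 fold change of 1.97 did not pass (95% interval -0.66 to 4.60, adjusted p = 0.223) and was -0.41 without Trf2-/- mouse 1. Crisp1, which encodes an epididymal secretory protein, had 2, 195 and 123 counts in WT and 1185, 119 and 0 counts in Trf2-/- mice. Rnase9, also an epididymal gene, had 0, 21 and 8 against 81, 7 and 0 counts. The 3 genes were highest in Trf2-/- mouse 1 and at or near 0 in WT mouse 1 and Trf2-/- mouse 3. Spinlw1, also on the epididymis list, was spread otherwise, with 781, 733 and 500 counts in WT and 930, 682 and 562 in Trf2-/- mice (log2 fold change 0.36, adjusted p = 0.0249). The epididymal genes Lcn8 and Lcn9 had at most 1 count in any mouse. The part of epididymal RNA in the count of Adam7 was not tested. Adam28, a gene of lymphocytes and epididymis, had 6, 2 and 5 counts in WT and 2, 1 and 2 in Trf2-/- mice and was not tested.

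**Figure D5:**
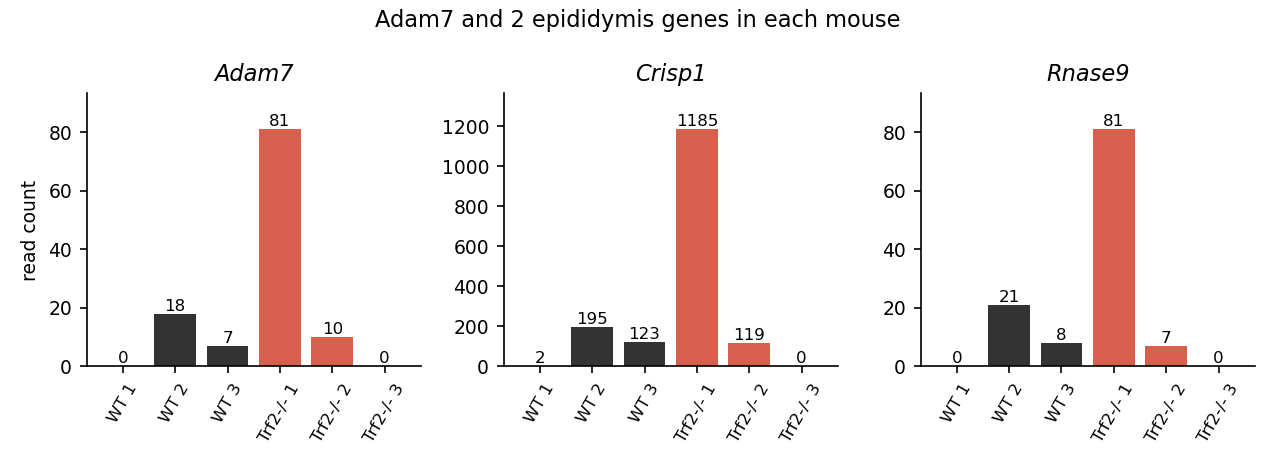
Read counts of Adam7 and of the epididymal genes Crisp1 and Rnase9 in the 3 WT mice (dark bars) and 3 Trf2-/- mice (red bars). All 3 genes peak in Trf2-/- mouse 1, at 81, 1185 and 81 counts, and have 0 counts in Trf2-/- mouse 3.

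Sperm ADAM proteins are folded, paired and processed with the help of other germ cell proteins, and the genes of 10 of these were in the table. Of the 9 tested, 4 were lower, 1 was higher and 4 did not pass, beside 20.2% lower and 11.2% higher over all genes tested, and the median log2 fold change was -0.02. Pdilt, an endoplasmic reticulum chaperone that ADAM3 needs, had 42, 46 and 25 counts in WT and 6, 6 and 7 in Trf2-/- mice. It was the most changed, with a log2 fold change of -2.30 (SE 0.32, adjusted p = 0.00111). Pdilt passed the filter on low counts only through its WT counts, so a gene with such counts had to differ to be tested. With at least 10 counts required in every mouse Pdilt was not tested, and Clgn, Cmtm2a and Cmtm2b were lower, beside 20.5% of all genes tested in that setting. Cmtm2b and Cmtm2a, membrane protein genes required for ADAM3 on sperm, had 5171, 4785 and 3866 against 2167, 2319 and 832 counts, and 6269, 5527 and 4485 against 2758, 2864 and 1079 counts. Their log2 fold changes were -1.20 and -1.10 (adjusted p = 0.00158 and 0.00179), and mouse 3 was again the lowest. Clgn, the chaperone calmegin, was lower by a smaller amount (log2 fold change -0.37, adjusted p = 0.00388), and Ace was higher (log2 fold change 0.28, adjusted p = 0.0370). Tex101 and Ly6k, whose proteins accompany ADAM3 on germ cells, had log2 fold changes of 0.00 and -0.02, and Calr3 and Tpst2 had 0.06 and 0.15, none of which passed. Rnase10 had too few reads to test.

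Around ADAM10 and ADAM17 the genes that passed changed by less than 2-fold, and their counts stand beside 20.2% lower and 11.2% higher over all genes tested. Of 15 tested regulators, which include the TIMP inhibitors, the tetraspanins that carry ADAM10 and the proprotein convertases that activate both enzymes, 3 were lower, 2 were higher and 10 did not pass. Timp2, an inhibitor of metalloproteases, rose by 0.32 on the log2 scale (adjusted p = 0.00197) and Furin, a convertase, by 0.33 (adjusted p = 0.00628). Tspan5, a tetraspanin partner of ADAM10, was at -0.27 (adjusted p = 0.00765). Of 19 tested substrates 1 was lower, 5 were higher and 13 did not pass. On the log2 scale Cdh2, the N-cadherin gene, was at -0.41 (adjusted p = 0.00220), Kitl, the stem cell factor gene, at 0.30 (adjusted p = 0.00840) and Notch1, a receptor gene, at 0.40 (adjusted p = 0.0120). The share of regulators that passed is near that background in both directions. The Adamts genes, the nearest related family, had 1 lower, 4 higher and 11 not past the test of 16 tested, against the same 20.2% and 11.2%, with a median log2 fold change of 0.26. Adamts12 and Adamts5 were both at 0.67 on the log2 scale (adjusted p = 0.00199 and 0.00762) and Adamts17 was at -0.59 (adjusted p = 0.00750).

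Promoter sequence was given for 16 of the 32 ADAM genes in the RefSeq table for GRCm38.p6, as 18 windows of 300 bases, from 250 before to 50 after the start of transcription. No window was given for Adam2, Adam3, Adam5, Adam18, Adam32, Adam30, Adam24 or Adam26a. Among the germ cell ADAMs that were lower, Adam1b alone was covered, so the counts below do not describe the promoters of the others. The full cAMP response element TGACGTCA, searched on both strands, was in 0 of the 18 and in 1.79% of all 32851 windows of the table. Its half-site TGACG was in 1, that of Adam10, and in 20.8% of all windows. The letters TATAAA were in 3, those of Adam29, Adam6a and Adam6b, and in 13.6% of all. Such a match is a description of these windows only.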

How the data were processed

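The authors sequenced stranded, ribosomal RNA-depleted total RNA as single-end 50-base reads, aligned it to NCBIM37 (mm9) with Tophat and normalised with DESeq2. The submitters' processing notes name CASAVA 1.8.2, TopHat2 2.0.10, Bowtie2 2.1.0, HTSeq 0.5.4p3 and DESeq2 1.0.19. The annotation release, the strand setting and the treatment of multiply mapped reads are not given in the sources used here. The deposited raw counts of 6 mice, 3 independent biological replicates per genotype, were used, and 12 further per-mouse columns were not. Gene length in bases was taken from the other columns the authors deposited. Genotypes were assigned from the labels.

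Counts were filtered with filterByExpr, scaled with TMM factors and tested with edgeR 4.0.16 (R 4.3.3; glmQLFit and glmQLFTest, Benjamini-Hochberg adjustment over 16924 genes). Standard errors were derived from the log2 fold change and the F statistic, and intervals from its degrees of freedom. CPM used TMM-scaled library sizes. A count of 0 was taken to allow 3 counts, between 0.105 and 0.190 CPM, and intervals and limits cover counting error only. Same-genotype pairs differed by more than sampling noise (chi-square at least 3.52 times its degrees of freedom). The method was tried on simulated counts with fewer changed genes than passed here. Their changes were larger than those of the widely expressed ADAMs, so changes of that smaller size were not covered.

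The ADAM genes and all lists were chosen with earlier results of these data known. Each ADAM gene tested, or with at least 10 counts in any mouse, is named, and from the other gene lists, cell type markers aside, the 3 genes with the smallest p and any that passed at 2-fold or more; other genes named beside them were chosen after their values were seen. Of the testase list, Adam20, Adam36, Adam37, Adam38 and Adam40, and of the sperm maturation list Prss37 and Pmis2, were not analysed here, nor were the markers Prm1, Tnp2 and Rhox5. Annotated coordinates of all 32 ADAM genes matched Gencode vM1. Proteins were translated from its transcripts and aligned with MAFFT 7.526. Alternatives were DESeq2 1.42.0 size factors and Wald test, library size alone, other count filters, a replicate block, each mouse left out and an adjusted p under 0.01.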

Additional observations from a re-analysis of the deposited data

How the results depend on the processing

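The 11 ADAM genes that were lower stayed lower and past the test in each alternative that tested them. Of the 6 that were higher, Adam17 alone passed in all, while the others stayed higher but missed the threshold in some, and the cause was not tested. With no filter beyond 1 count, 13 ADAM genes were at least 2-fold lower and the germ cell median was -1.65, because 7 more germ cell ADAM genes with few reads entered. Of these, Adam29, Adam26b, Adam25, Adam39 and Adam34 passed with 0 counts in every Trf2-/- mouse. The median over all 26743 genes was 0.04 in that setting, and their share at least 2-fold lower is not given here. With at least 10 counts in every mouse, 3 sperm ADAM maturation genes passed, since Pdilt was not tested and Ace had an adjusted p of 0.0508, and Adam26a and Adam24 were not tested. At an adjusted p under 0.01, 1 ADAM gene was higher, and 3 regulators and 2 substrates passed. Of all 16924 genes tested, 2334 were lower and 481 higher at that limit. With 1 mouse left out at a time, between 2 and 6 ADAM genes were higher, the median of the widely expressed ADAMs was between 0.25 and 0.43, between 3 and 6 regulators passed, and between 2 and 6 substrates. Over all genes, between 780 and 1903 were then higher and between 2626 and 3332 lower. The direction reversed for 4 genes that had not passed. With 1 mouse left out, Adam4 ran from -0.02 (without Trf2-/- mouse 1) to 0.45, Adam1a from -0.22 (without Trf2-/- mouse 3; -0.05 without WT mouse 2) to 0.21, Adam21 from -0.51 to 0.05 (without WT mouse 2) and Adam7 from -0.41 (without Trf2-/- mouse 1) to 3.13. Adam12 passed with library size alone, with no filter and without Trf2-/- mouse 3, and Adam9 with library size alone (log2 fold change 0.16, adjusted p = 0.0454). Samples with the same replicate number did not deviate together (correlations -0.10, -0.03 and -0.10). A pairing that leaves no shared deviation in expression cannot be seen in this way, so whether the numbers pair the mice is not settled. With the replicate number as a block 11 ADAM genes were lower and 5 higher, the adjusted p of Adam10 was 0.0534, and over all genes 3094 were lower and 1486 higher. No WT mouse correlated best with the Trf2-/- mouse of its own number. The 8 untested ADAM genes and Adam21 had too few counts to show moderate changes.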
